A study of Rattus norvegicus with 6 samples.

Results

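The interferon response and antigen presentation genes examined here are 37 genes chosen by name: interferon receptors with their kinases and transcription factors, antiviral effectors and chemokines, and genes that process antigen for class I presentation. Of these, 36 have a row in the files, out of 17954 genes in all. Cxcl9 has no row, and only its promoter is included here. Expression was measured by mRNA sequencing of rat chondrocytes, cartilage cells, of the mandibular condyle, the jaw's side of its joint. One group is a flat culture of these cells in DMEM with fetal bovine serum (2D culture, 3 libraries) and the other is a condylar cartilage organoid kept in a chondrogenic medium (organoid, 3 libraries). The labels give no strain, age or genotype, and culture format, medium and serum differ together between the groups, so their parts cannot be told apart. Whether the 3 libraries in each group stem from different animals or dishes is not stated, and p-values reflect only their spread, which could be technical.

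Interferons are secreted proteins that alert cells to virus. Type I interferons bind the receptor made of Ifnar1 and Ifnar2, and interferon gamma binds the one made of Ifngr1 and Ifngr2. The attached Janus kinases then activate STAT proteins, which enter the nucleus with or without Irf9 and switch on genes that carry an interferon-stimulated response element (ISRE) or a gamma-activated site (GAS). Many cells keep a low tonic level of these genes without infection. Class I molecules, a heavy chain (named RT1 in the rat) paired with B2m, carry peptides that the immunoproteasome cuts, the Tap1 and Tap2 pump moves into the endoplasmic reticulum and Tapbp helps to load.

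Libraries held 18592574 to 26472447 estimated counts. Levels are CPM (counts scaled to each library's size) after scaling by the trimmed mean of M-values (TMM), given as mean ± SD (n = 3), and 3 counts correspond to 0.0917 to 0.18 CPM in a library. Changes are log2 fold changes of organoid over 2D culture ± SE from edgeR's quasi-likelihood test, and genes with an adjusted p under 0.05 are called. Of 13052 genes tested, 3594 were called. Organoid libraries varied more than those of 2D culture, with a median SD of log2 CPM of 0.689 against 0.137. Scaling by total library size instead moved the median log2 fold change of all genes from -0.033 to -0.645, and the share of calls that were higher in organoids from 54.1% to 23.1% (43.9% with limma-voom). The chondrocyte label was met in part by the 2D culture. Acan stood there at 1413 to 1513 CPM and Sox9 at 51.4 to 55.4 CPM. Col2a1, the main cartilage collagen, was at 2.91 to 4.89 CPM, against 6414 to 78321 CPM in organoids. The summed level of 11 chondrocyte markers was 1502 to 1606 CPM in 2D culture, most of it from Acan, and 12848 to 108702 CPM in organoids. Markers of other cell types moved too: the summed level of 8 osteoblast markers was 260 to 267 CPM in 2D culture and 12829 to 20820 CPM in organoids, and that of 7 fibroblast and contractile markers 7247 to 8124 and 463 to 744 CPM. Their part in the values below was not tested, and in bulk samples a change in the number of cells of a type and in RNA per cell cannot be told apart.

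The promoters were searched for letters that interferon signalling reads. Promoter windows from 250 bases before to 50 bases after the gene start (RefSeq, GRCr8) were found for 30 of the 37 genes; Jak1, Ifit1, Ifit2, Isg15, Mx2, Usp18 and Nlrc5 had no entry. The ISRE core, searched on both strands as GAAA, any 2 bases, and GAAA again, was present in 17 of the 30, against 3.77% of 27457 promoters of the same length. It occurred in 10 of 13 antiviral effector and chemokine promoters and 6 of 7 antigen processing promoters, and in 1 of 10 promoters of the receptor, kinase and transcription factor group. The palindromic GAS letters TTCNNNGAA were in 7 of the 30, against 8.68% of all promoters. The windows below run 5′ to 3′ on the gene's strand, with the ISRE core in capitals, and are shown because these genes carry the results that follow: a chemokine and an effector that were called, the transcription factor Irf7, and genes of class I presentation.
Cxcl10, chr14:15988816-15988847, plus strand: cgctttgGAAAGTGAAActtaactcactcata
Isg20, chr1:142239952-142239991, plus strand: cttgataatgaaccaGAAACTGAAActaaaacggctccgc
Irf7, chr1:205800068-205800107, minus strand: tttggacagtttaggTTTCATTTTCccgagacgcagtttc
Psmb8, chr20:4657011-4657050, minus strand: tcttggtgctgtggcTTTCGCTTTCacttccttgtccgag
Psmb10, chr19:50743285-50743324, minus strand: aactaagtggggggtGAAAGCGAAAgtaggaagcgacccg
Tap1, chr20:4668640-4668679, minus strand: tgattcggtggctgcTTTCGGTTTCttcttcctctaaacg
B2m, chr3:129549165-129549204, plus strand: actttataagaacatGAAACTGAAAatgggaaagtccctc
In Irf7, Psmb8 and Tap1 the capitals are the core as it reads from the other strand. A match describes the letters only and does not show a bound site. A promoter without a match may still hold a variant of the letters, or a site outside the window.

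The design sets the organoid against the flat culture. Few of the interferon and antigen presentation genes passed the test: of 25 that met the low-count filter, 2 rose (Isg20 and Jak2), 1 fell (Cxcl10) and 22 did not pass, so that 12% were called against 27.5% of all tested genes. The groups did not overlap for 12 of the 25 genes (48%, against 53.5% of all tested genes). The median log2 fold change was -0.36, against -0.03 over all tested genes, and 5 of the 25 had an unadjusted p under 0.05. Another 11 genes were too low to test, and 6 of those tested (Irf7, Ifit2, Ifih1, Cxcl10, Psmb8 and Psmb9) met the filter only through 2D culture. Whichever 2D culture library was left out, none of the 3 calls held (edgeR adjusted p from 0.0776 for Isg20 to 0.193 for Jak2). Most calls over all genes were lost in these fits too. Their number went from 3594 to 1114, 1211 and 1109 without 2D culture 1, 2 and 3. Without 1 organoid it rose to between 4589 and 5321. With total library size, 1 gene was higher and 7 lower.

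**Figure D1:**
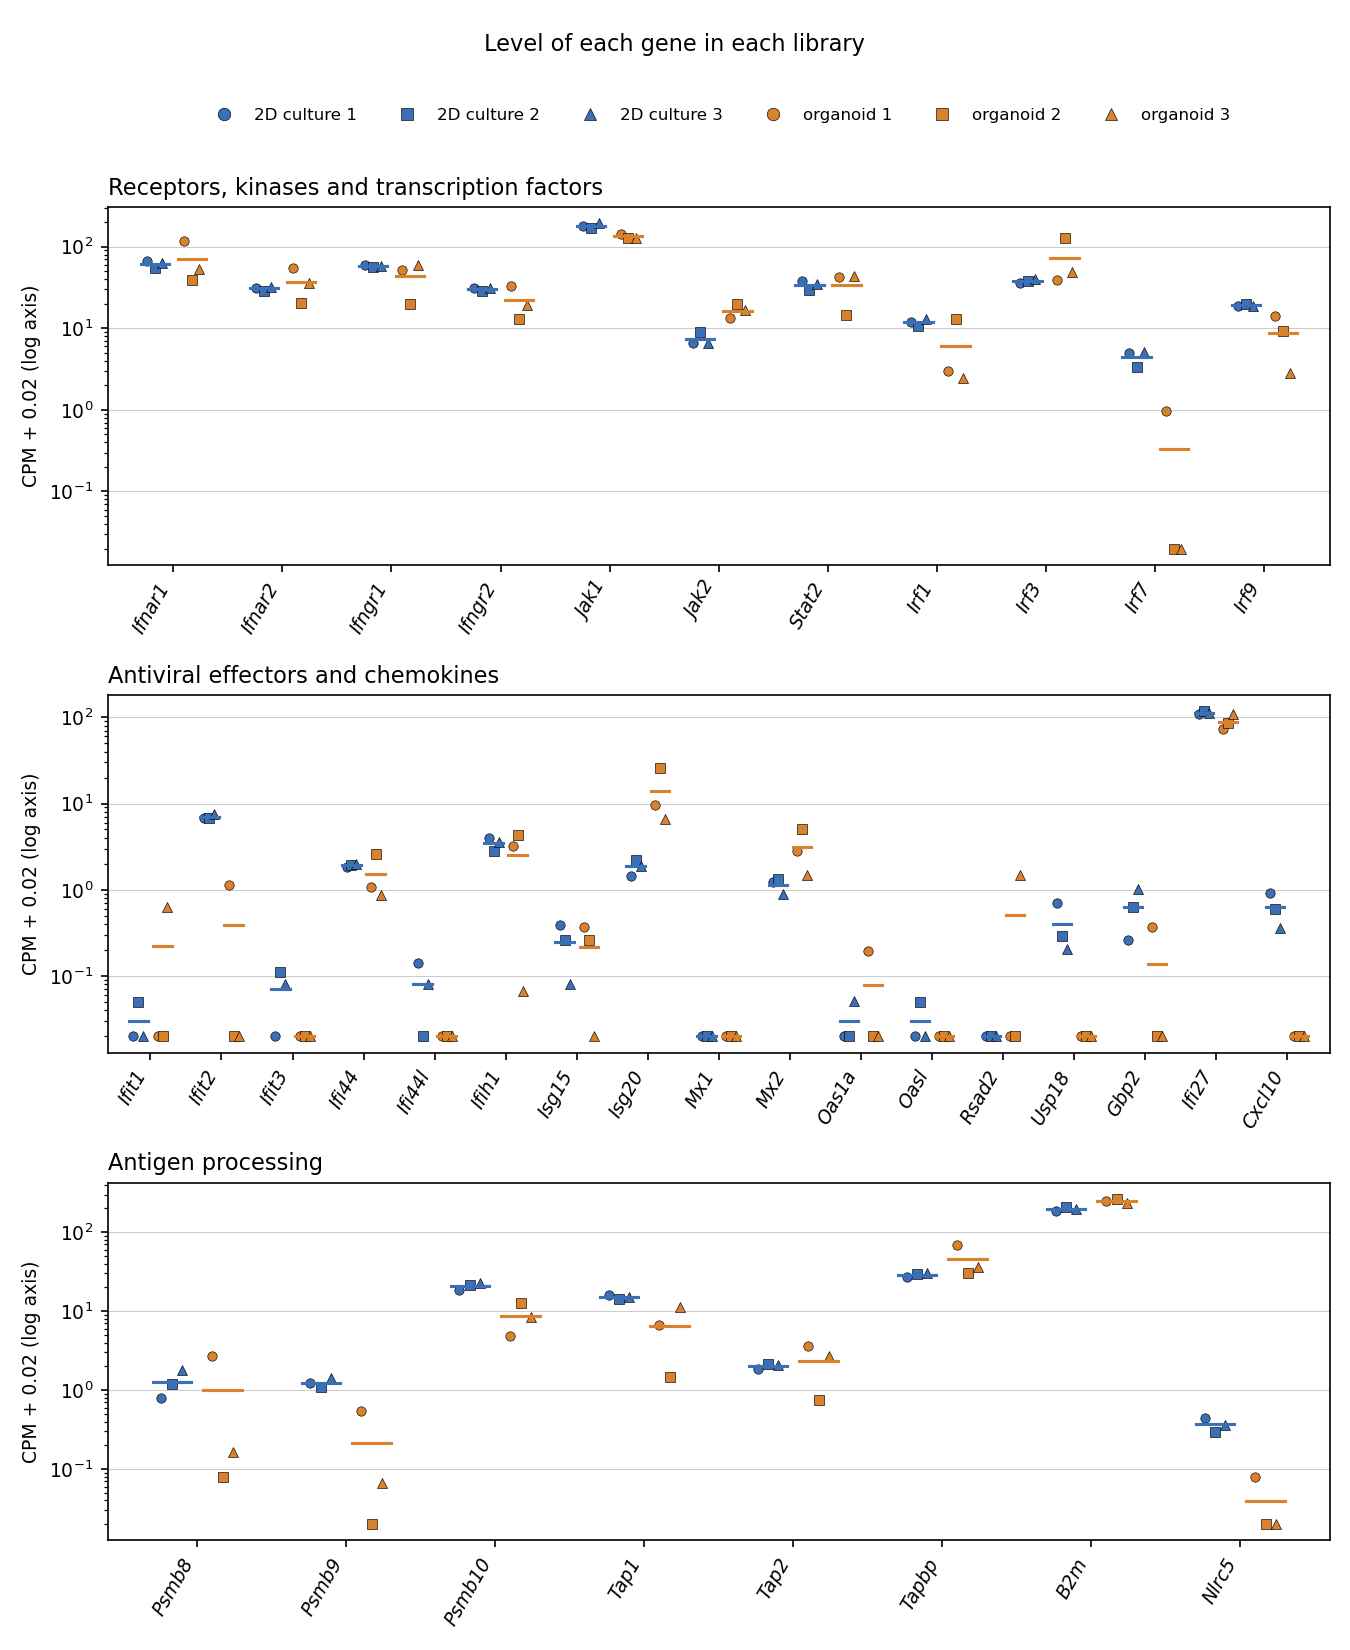
Level of each of the 36 genes in each library, as CPM + 0.02 on a log axis, with 2D culture in blue, organoids in orange, marker shape for the replicate and a bar at the group mean. A gene with 0 counts sits at 0.02; Irf7, Ifit2 and Cxcl10 have all 2D culture points above all organoid points, and Isg20 the reverse.

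The receptors for both kinds of interferon were expressed in every library of both groups, and none of them passed the test. Ifnar1 (gene ID 288264), a chain of the type I receptor, was at 65.9, 54.6 and 63.2 CPM in 2D culture 1, 2 and 3 and at 116, 39.5 and 53.2 CPM in organoid 1, 2 and 3. Organoid 1 lay above the 2D culture range and organoids 2 and 3 below it, and the fitted change was 0.19 ± 0.41 (edgeR adjusted p = 0.766). Its partner chain Ifnar2 had 30.7 ± 2.07 and 36.9 ± 17.1 CPM (0.27 ± 0.37, adjusted p = 0.628), again with organoid 1 highest. Both changes turned negative with total library size (-0.52 and -0.42) and without organoid 1 (-0.38 and -0.10). The interferon gamma receptor chains Ifngr1 and Ifngr2 had 58.1 ± 1.78 and 43.6 ± 21 CPM, and 30.3 ± 1.41 and 21.9 ± 10.2 CPM, with organoid 2 lowest for each (adjusted p = 0.481 and 0.373); Ifngr2 passed with total library size (-1.15, adjusted p = 0.0253).

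Of the receptor-bound kinases, one rose. Jak2 (gene ID 24514), a kinase of the interferon gamma receptor and of several cytokine and growth hormone receptors, was at 6.65, 8.86 and 6.62 CPM in 2D culture and at 13.2, 19.7 and 16.5 CPM in organoids. Every organoid was above every 2D culture, and the change was 1.16 ± 0.34 (edgeR adjusted p = 0.0441). It did not pass with total library size (0.57, adjusted p = 0.328), without the low-count filter (adjusted p = 0.069) or with limma-voom with group weights (adjusted p = 0.0722). Jak1, the kinase shared by both receptor kinds, was at 177, 167 and 192 CPM in 2D culture and at 144, 129 and 129 CPM in organoids. The groups did not overlap, but the change of -0.41 ± 0.18 did not pass (adjusted p = 0.131); with total library size it did (-1.04, adjusted p = 0.00817). The counts of Jak1 are fractional in all 6 libraries, so reads may have been split with other genes. Stat2, the STAT of the type I pathway, had 34.1 ± 4.68 and 33.7 ± 16.6 CPM (-0.02 ± 0.43, adjusted p = 0.98).

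None of the 4 interferon regulatory factors passed the test, although Irf7 and Irf9 were lower in every organoid. Irf7 (gene ID 293624), itself induced by interferon and an amplifier of type I interferon production, was at 4.93, 3.36 and 5.04 CPM in 2D culture, at 0.943 CPM in organoid 1 (16 counts) and at 0 counts in organoids 2 and 3. Every organoid was below every 2D culture, yet the change of -3.82 ± 1.64 did not pass (edgeR adjusted p = 0.13) and passed without organoid 1 (adjusted p = 0.00906), with DESeq2 (adjusted p = 0.0499) and with limma-voom (adjusted p = 0.0149). Irf9, the DNA-binding part of the type I complex, stood at 18.9, 19.7 and 18.8 CPM in 2D culture and at 14.1, 9.19 and 2.84 CPM in organoids, without overlap (-1.14 ± 0.56, adjusted p = 0.178). It passed with total library size (-1.83, adjusted p = 0.0331).

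The fitted changes of Irf1 and Irf3 depended on organoid 2. Irf1, a factor downstream of interferon gamma, was at 12, 10.7 and 12.8 CPM in 2D culture and at 3, 12.9 and 2.41 CPM in organoids, so that organoids 1 and 3 were low and organoid 2 was about as high as 2D culture (-0.95 ± 0.69, adjusted p = 0.345; without organoid 2, -2.08, adjusted p = 0.00607). Irf3, the factor that virus sensors activate, was at 35.6, 38.1 and 40.4 CPM in 2D culture and at 39.5, 127 and 48.3 CPM in organoids (0.91 ± 0.45, adjusted p = 0.179; without organoid 2, 0.25). In this group of 11 genes 1 rose, 0 fell and 10 did not pass, with a median log2 fold change of -0.41. That median was -0.02 without organoid 2 and -1.04 with total library size.

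Of 17 antiviral effector genes with a row in the files, 10 were too low to test. Mx1, a GTPase that blocks influenza viruses, had 0 counts in all 6 libraries, which allows up to 0.0917 to 0.18 CPM in each. Oasl, Oas1a and Ifit3 had at most 3 counts in any library, Ifi44l at most 4, and Isg15, a ubiquitin-like modifier and one of the most strongly interferon-induced genes, had 12, 8 and 2 counts in 2D culture and 6, 4 and 0 in organoids. Intervals and limits here cover counting error only, and a fold set against 3 counts leaves out that of the higher group.

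Among the effectors with more counts, several were present in 2D culture and at or near 0 in organoids. Cxcl10 (gene ID 245920), a chemokine that attracts activated T cells, had 29, 19 and 11 counts in 2D culture (0.889, 0.581 and 0.34 CPM) and 0 in every organoid. Set against 3 counts over the organoid group, Cxcl10 was 11-fold lower (edgeR adjusted p = 0.0241). It passed the filter through 2D culture alone. Its call was lost with DESeq2 (adjusted p = 0.0522) and with limma-voom with group weights (adjusted p = 0.0678). Ifit2, which binds viral RNA and restrains translation, was at 6.77, 6.79 and 7.49 CPM in 2D culture, at 1.12 CPM in organoid 1 and at 0 counts in organoids 2 and 3. Its change of -4.23 ± 1.63 did not pass (adjusted p = 0.0992), and it did pass without organoid 1 (adjusted p = 0.00573), with DESeq2 (adjusted p = 0.0188), limma-voom (adjusted p = 0.00994) and total library size (adjusted p = 0.0397).

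Among the untested genes, Usp18 and Gbp2 had most of their counts in 2D culture, and Rsad2 and Ifit1 in organoid 3. Usp18, the protease that removes Isg15 and damps the type I receptor, had 22, 9 and 6 counts in 2D culture and 0 in organoids. Set against 3 counts over the organoid group, Usp18 was 6.91-fold lower, and it was not tested. Gbp2, a GTPase induced by interferon gamma, had 8, 20 and 32 counts in 2D culture and 6, 0 and 0 in organoids, and as CPM organoid 1 (0.354) lay within the 2D culture range (0.245 to 0.99). Rsad2, whose product viperin inhibits viral replication, had 31 counts in organoid 3 and 0 in every other library. Ifit1, a relative of Ifit2, had 13 counts in organoid 3, 1 in 2D culture 2 and 0 in the others, with fractional counts in 2 libraries. These values rest on a single library.

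Isg20 and Mx2 were the tested effectors with every organoid above every 2D culture. Isg20 (gene ID 293052), an exonuclease that degrades RNA, was at 1.44, 2.2 and 1.89 CPM in 2D culture and at 9.54, 25.9 and 6.53 CPM in organoids. Isg20 rose by 2.92 ± 0.64 (edgeR adjusted p = 0.0183). Its counts are fractional in 4 libraries, and reads may have been split with other genes there. The highest value was in organoid 2. Mx2, a relative of Mx1, was at 1.2, 1.31 and 0.867 CPM in 2D culture and at 2.77, 5.11 and 1.47 CPM in organoids, and did not pass (1.46 ± 0.74, adjusted p = 0.183) except without organoid 3 (adjusted p = 0.0446).

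The remaining tested effectors overlapped between the groups. Ifi27, a mitochondrial and nuclear envelope protein, had 112 ± 4.2 and 89.1 ± 18.3 CPM (-0.34 ± 0.21, adjusted p = 0.28; with total library size, -0.93, adjusted p = 0.0405). Ifi44 had 1.91 ± 0.0714 and 1.5 ± 0.946 CPM (adjusted p = 0.756). Ifih1, the sensor MDA5 of long double-stranded RNA, was at 3.92, 2.81 and 3.59 CPM in 2D culture and at 3.24, 4.27 and 0.0473 CPM in organoids. Organoid 3, with 1 count, stood apart from organoids 1 and 2, and the adjusted p was 0.81. Over the 7 tested effectors the median log2 fold change was -0.35, also with Cxcl10 set at its fold against 3 counts.

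**Figure D2:**
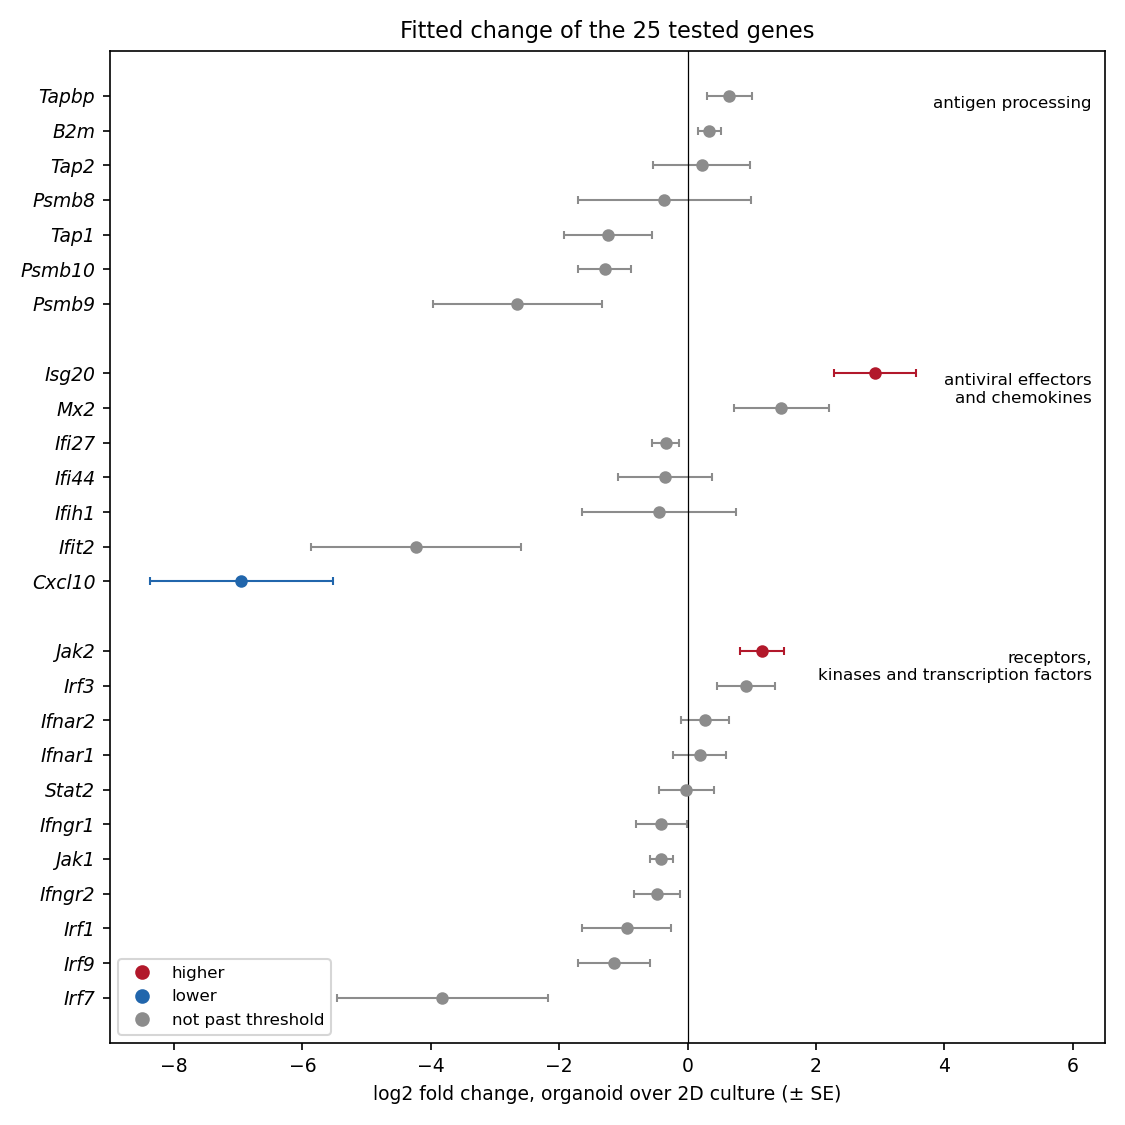
Log2 fold change of organoid over 2D culture with its SE for the 25 tested genes, by group, with called genes in red (higher) or blue (lower) and the others in grey. Isg20 and Jak2 lie to the right and Cxcl10 to the left; the point of Cxcl10 depends on the prior count because it has 0 counts in organoids.

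The inducible proteasome subunits Psmb9 and Psmb10 and the pump subunit Tap1 were lower in every organoid, and B2m was higher in every organoid, but none of the 7 tested antigen processing genes passed in edgeR (1 had an unadjusted p under 0.05; DESeq2 called 1 and limma-voom 2, all lower), and the median log2 fold change was -0.36. Psmb10 (gene ID 291983), an inducible catalytic subunit of the proteasome, was at 18.7, 21.5 and 23 CPM in 2D culture and at 4.83, 12.6 and 8.47 CPM in organoids. All organoids were below all 2D cultures (-1.29 ± 0.41, adjusted p = 0.0568), and the gene passed with DESeq2 (adjusted p = 0.0161), limma-voom (adjusted p = 0.0257), total library size (adjusted p = 0.0263) and without organoid 2 (adjusted p = 0.0152). Psmb9, a second inducible subunit, was at 1.2, 1.07 and 1.39 CPM in 2D culture and at 0.53, 0 and 0.0473 CPM in organoids (-2.65 ± 1.31, adjusted p = 0.178; without organoid 1, -5.31, adjusted p = 0.0187).

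Psmb8, the third inducible subunit, was unlike the others in organoid 1. It stood at 0.766, 1.16 and 1.8 CPM in 2D culture and at 2.71, 0.0601 and 0.142 CPM in organoids, so organoid 1 was the highest library of all and organoids 2 and 3 had 1 and 3 counts (-0.36 ± 1.35, adjusted p = 0.87). Its change was -3.51 without organoid 1 (adjusted p = 0.0302), 0.24 without organoid 2 and 0.15 without organoid 3. The constitutive subunits that these replace were lower in organoids: Psmb5 fell by 0.95, Psmb6 by 0.81 and Psmb7 by 0.70 on the log2 scale (edgeR adjusted p = 0.0231, 0.0211 and 0.0261). All 3 lost their calls whichever 2D culture library was left out.

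The inducible subunits were also set against their constitutive partners within each library, a ratio that no scaling affects. Counts of Psmb10 per 1000 counts of Psmb7 were 98.1, 113 and 123 in 2D culture and 44.4, 105 and 69.8 in organoids, where organoid 2 reached into the 2D culture range. Counts of Psmb9 per 1000 of Psmb6 were 4.95, 4.27 and 6 in 2D culture and 4.43, 0 and 0.329 in organoids. Counts of Psmb8 per 1000 of Psmb5 were 3.43, 4.68 and 7.41 in 2D culture and 27.8, 0.514 and 0.922 in organoids. The differences in mean log2 ratio were -0.69 for Psmb10, -2.72 for Psmb9 (with 0.5 added to each count) and -1.06 for Psmb8, with two-sided exact permutation p = 0.2, 0.2 and 0.6 (adjusted over the 3 ratios, 0.3, 0.3 and 0.6). The smallest p that 3 against 3 libraries allow is 0.1.

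The transport and loading genes showed no called change. Tap1, a subunit of the peptide pump, was at 16.1, 14.4 and 15.2 CPM in 2D culture and at 6.6, 1.44 and 11.3 CPM in organoids. Every organoid was lower, but the organoids spread widely (-1.24 ± 0.68, adjusted p = 0.219). Tap2, its partner, had 2 ± 0.141 and 2.32 ± 1.46 CPM (0.22 ± 0.76, adjusted p = 0.86), and Tapbp, the loading chaperone tapasin, had 28.9 ± 1.9 and 45.3 ± 21 CPM (0.65 ± 0.35, adjusted p = 0.206). B2m (gene ID 24223), the light chain of every class I molecule, was at 184, 206 and 198 CPM in 2D culture and at 249, 262 and 232 CPM in organoids, without overlap (0.34 ± 0.18, adjusted p = 0.21). Tap2, Tapbp and B2m turned negative with total library size (-0.47, -0.04 and -0.28). Nlrc5, the transactivator of class I genes, had 14, 9 and 11 counts in 2D culture and 1, 0 and 0 in organoids, a pooled level 19.1 times lower (3.2 to 775 by the exact 95% interval, which covers counting error only), and was too low to test.

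The class I heavy chains, taken from a wider list of pathway genes, were higher in organoids. Among 18 RT1 class I genes in that list 16 were tested, of which 11 rose, none fell and 5 stayed under the threshold (68.8% called, against 14.9% of all tested genes higher), with a median log2 fold change of 2.51. RT1-A2 (gene ID 24974) was at 46.6, 44.6 and 41.9 CPM in 2D culture and at 659, 155 and 288 CPM in organoids. All organoids were above all 2D cultures and RT1-A2 rose by 3.05 ± 0.53 (edgeR adjusted p = 0.00876). RT1-A1 rose by 2.39 ± 0.53, from 31.4 ± 0.667 to 165 ± 118 CPM, RT1-CE2 by 3.84 ± 0.58 and RT1-S3 by 4.58 ± 0.85. Genes that did not pass include RT1-N3, at 13.2, 15.2 and 13.4 CPM in 2D culture and 6.89, 0.3 and 9.65 CPM in organoids (adjusted p = 0.355), and RT1-M3-1 (adjusted p = 0.517).

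These heavy chain genes are close copies of each other, and 17 of the 18 have a fractional count in at least 1 library. Values of single RT1 genes are therefore uncertain. Their calls may not be independent of each other, so the share called cannot be weighed like that of unrelated genes. The summed level of the 18 genes does not depend on how reads were split among them: it was 282, 271 and 270 CPM in 2D culture and 2655, 625 and 1205 CPM in organoids. The lowest organoid was above the highest 2D culture, and the difference in mean log2 level was 2.20 (4.59-fold). The two-sided exact permutation p was 0.1, the smallest that 3 against 3 libraries allow. The sum was chosen after its values were seen, so this p adds nothing to the separation of the groups. It was 2.21 over all 31 RT1 class I names in the files, 1.57 with total library size, and 1.66 without organoid 1. Without 2D culture 1, 2 and 3 the number of RT1 genes that rose was 4, 3 and 3. The sum, like RT1-A2 and RT1-A1, was highest in organoid 1 and lowest in organoid 2. Col2a1 had this order too, at 78321, 6414 and 21945 CPM, as did other genes, among them Ifnar1, Ifnar2, Tap2 and Tapbp. B2m was highest in organoid 2. Many genes can share an order of 3 libraries, and a link between these was not tested. The ISRE core was present in 2 of 17 RT1 class I promoters, those of RT1-S3, which rose, and RT1-N3, which was lower in every organoid. The search took exact letters only, so the other promoters may hold a variant of the core. The window of RT1-S3 is shown, with the core as it reads from the other strand.
RT1-S3, chr20:2675401-2675440, plus strand: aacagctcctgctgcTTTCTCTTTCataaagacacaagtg

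**Figure D3:**
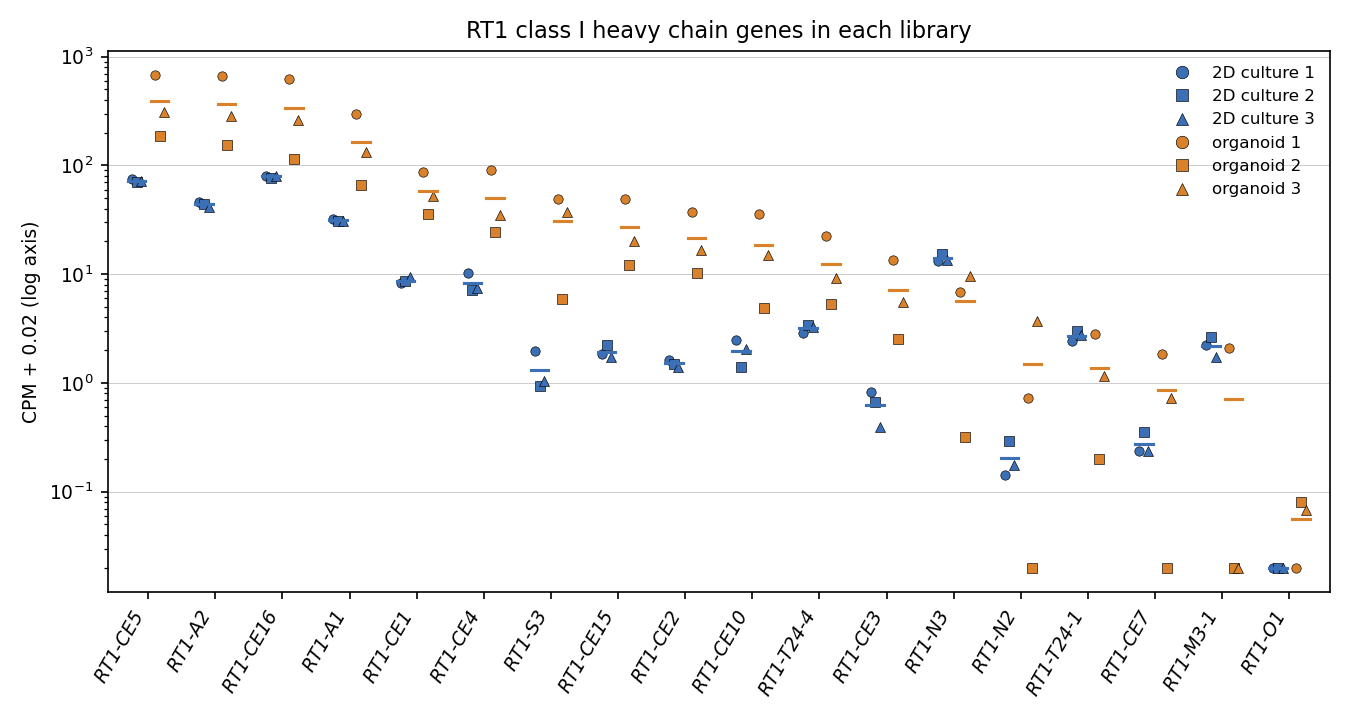
Level of 18 RT1 class I heavy chain genes in each library, as CPM + 0.02 on a log axis and ordered by organoid mean, with bars at the group means. In the 12 genes from the left every organoid lies above every 2D culture; RT1-N3 shows the reverse.

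**Figure D4:**
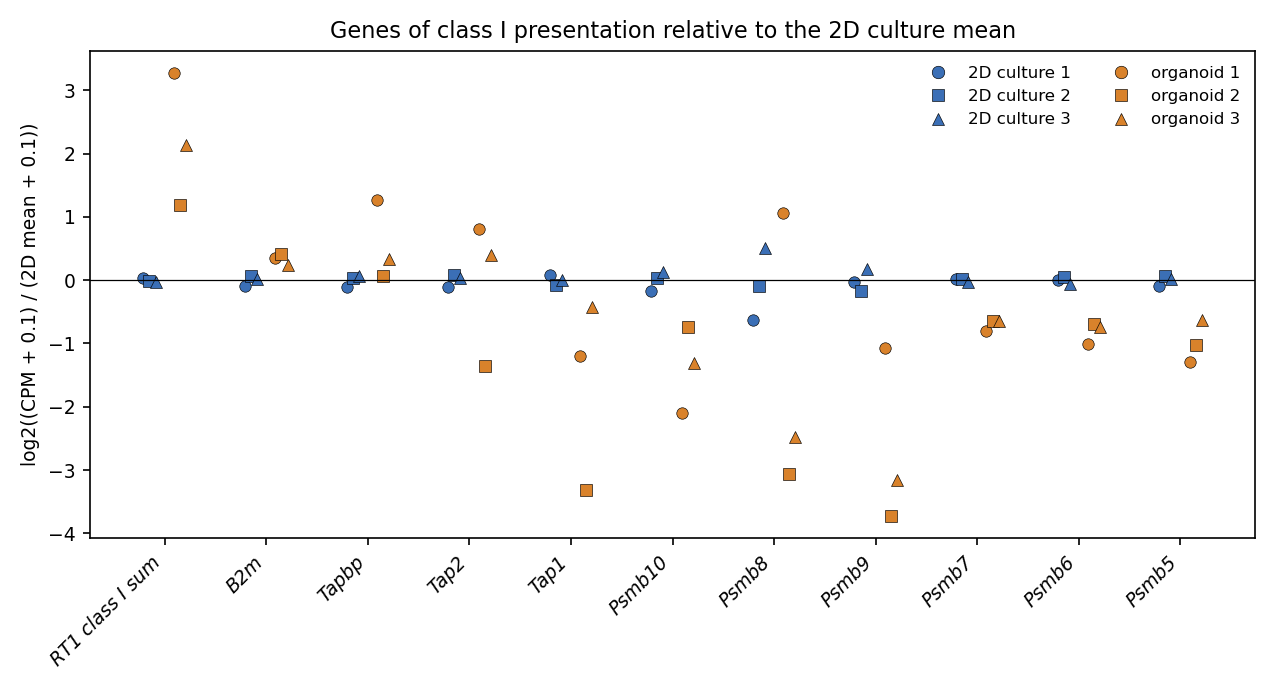
Level of genes of class I presentation in each library relative to the 2D culture mean, as log2((CPM + 0.1)/(2D mean + 0.1)), from the RT1 sum through B2m, loading, transport and the inducible to the constitutive proteasome subunits. The RT1 sum is above 0 in all organoids, and Tap1, Psmb10, Psmb9 and the constitutive subunits are below 0 in all organoids.

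Of 11 tested genes of class I loading and class I-like function 2 rose (Hfe and Cd1d1) and 0 fell, against 14.9% of all tested genes higher and 12.6% lower. Hfe, the class I-like regulator of iron uptake, went from 0.429, 0.336 and 0.619 CPM to 16.6, 6.73 and 21.9 CPM (5.02 ± 0.65, edgeR adjusted p = 0.00317), and Cd1d1, which presents lipids, from 7.17 ± 1.5 to 41.4 ± 15.1 CPM (2.53 ± 0.35, adjusted p = 0.00405). Both kept their calls when any one library was left out. Class II genes were mostly at or near 0: 8 of 13 were too low to test, RT1-Da had 0 counts in all libraries, and Ciita, the class II transactivator, had 2, 18 and 2 counts in 2D culture and 0, 0 and 2 in organoids. Of the 5 tested class II genes 2 rose, against 14.9% of all tested genes. RT1-Bb, which met the filter through organoids alone, was at 0.0919, 0.0306 and 0 CPM in 2D culture and at 27.2, 0.541 and 17.7 CPM in organoids (8.37 ± 1.73, adjusted p = 0.015), and its partner chain gene RT1-Ba had at most 1 count in any library. Rfxank, a subunit of the class II promoter complex, rose by 1.33 ± 0.37. Neither held its call whichever 2D culture library was left out, and RT1-Bb lost it with limma-voom (adjusted p = 0.0874).

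Markers of immune and vessel cells are given beside these changes because such cells carry class I and class II molecules. The summed level of 15 macrophage and monocyte markers was 8.1 to 10.9 CPM in 2D culture and 18.7 to 69.1 CPM in organoids, and 1 of the 4 tested (Lyz2, tested through organoids alone) rose. The defining leukocyte gene Ptprc had 0 counts in 2D culture and at most 3 in an organoid, Adgre1 had 0 in every library, and Tyrobp had 0 in every organoid. Csf1r was at 32.5, 16.7 and 0.142 CPM in organoids. The sum of 9 endothelial markers was 0.797 to 1.27 CPM in 2D culture and 12.4 to 58.4 CPM in organoids, mostly from Esam (52.8, 17.7 and 9.42 CPM), while Pecam1 had 8, 0 and 0 counts there. Cldn5 had 0 counts in every 2D culture and 15, 70 and 60 in organoids, and Cldn5 and Esam, both tested through organoids alone, were called higher. Of 9 markers of T, B and NK cells 6 had 0 counts in all organoids; Cd79a, at 13.8, 9.37 and 29 CPM in organoids, was called higher, and Cd2 and Gzmb, at 0 counts in organoids, were called lower; each met the filter only through the group where it was high. The sum of 6 dendritic cell markers was 1.29 to 2.63 CPM in 2D culture and 0.757 to 3.43 CPM in organoids. The part of such cells in the class I and class II values was not tested.

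Upstream of the receptors, only 2 of the 12 listed interferon ligands have a row in the files, and both were at or near 0. Ifna1 had 2 counts in 1 library of 2D culture and Ifna4 had 0 in all libraries. The other listed ligands, among them Ifnb1 and Ifng, have no row, so nothing can be said of their level. Among 16 tested sensors and adaptors of the nucleic acid response there was 1 called higher and 2 lower, against 14.9% of all tested genes higher and 12.6% lower. Tank, an adaptor of the kinases that activate Irf3, went from 31.8, 25.2 and 29.4 CPM to 3.12, 5.17 and 5.49 CPM (-2.65 ± 0.34, edgeR adjusted p = 0.00288). Adar, an RNA-editing enzyme that limits sensing of the cell's own RNA, rose by 0.77 ± 0.23 (adjusted p = 0.0475) and lost its call without each library except organoid 2 (adjusted p from 0.0613 to 0.204) and with total library size (adjusted p = 0.691). Sting1, the adaptor of cytosolic DNA sensing, had 33, 21 and 25 counts in 2D culture and 0 in organoids. Set against 3 counts over the organoid group, Sting1 was 14.8-fold lower (adjusted p = 0.0176). It passed the filter through 2D culture alone and lost its call whichever 2D culture library was left out.

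Genes that tune interferon signalling included 4 called higher and none lower among 12 tested, against 14.9% of all tested genes higher. Socs1, a feedback inhibitor of the Janus kinases, was at 1.23, 1.31 and 1.15 CPM in 2D culture and at 23.7, 7.87 and 13.1 CPM in organoids, and rose by 3.59 ± 0.55 (edgeR adjusted p = 0.0055). Ifnlr1, the specific chain of the type III interferon receptor, went from 2.08, 2.29 and 1.73 CPM to 17, 27.1 and 9.18 CPM (3.12 ± 0.51, adjusted p = 0.00693; without 2D culture 3, adjusted p = 0.0504). Irf2, which can repress interferon-responsive promoters, went from 9.77 ± 1.13 to 37.7 ± 6.6 CPM (1.95 ± 0.26, adjusted p = 0.00328). Tyk2, the Janus kinase of the type I receptor, went from 27.5 ± 3.26 to 54.7 ± 7.67 CPM (0.99 ± 0.22, adjusted p = 0.0183) and lost its call with total library size (0.39, adjusted p = 0.321) and whichever 2D culture library was left out.

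A further list of 47 genes taken as interferon-induced also holds relatives by name, such as Isg20l2 and Ifitm10. Of the 47, 31 were tested, with 3 higher, 2 lower and 26 not past the threshold (median log2 fold change -0.39). Over all tested genes 14.9% were higher and 12.6% lower. Lgals9, the lectin galectin-9, went from 0.0919, 0.122 and 0.155 CPM to 25, 39.8 and 35.2 CPM (8.03 ± 0.44, edgeR adjusted p = 0.000197), met the filter through organoids alone and has fractional counts in 3 libraries. Ifitm1, a membrane protein that blocks virus entry, was at 0.184, 0.275 and 0.248 CPM in 2D culture and at 1.77, 15 and 3.26 CPM in organoids (4.79 ± 1.05, adjusted p = 0.018). It too passed the filter through organoids alone, and it lost its call whichever 2D culture library was left out, as did Tor3a (1.15 ± 0.29, adjusted p = 0.0281). In the other direction, Ifi27l2b, a relative of Ifi27, fell from 58.3 ± 9.2 to 3.13 ± 1.09 CPM (-4.22 ± 0.35, adjusted p = 0.000736). Sp100, a nuclear body protein, had 15, 37 and 39 counts in 2D culture and 0 in organoids. Set against 3 counts over the organoid group, it was 17-fold lower (adjusted p = 0.02). Sp100 passed the filter through 2D culture alone and also lost its call whichever 2D culture library was left out, while Lgals9 and Ifi27l2b kept theirs.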

How the data were processed

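Per the labels' protocols, RNA came from a Trizol extraction and mRNA libraries were prepared for DNBSEQ sequencing. Per the submitters' processing notes, the tools were DESeq2, RSEM, Bowtie2, HISAT2 and HISAT, with no version or role named; the build, annotation and strand setting were not given in the sources used here. The authors deposited unnormalised estimated counts, which can be fractional, for each gene and library; these were rounded. Such estimates are usually fractional where reads fit several genes.

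Tests used edgeR 4.0.16 in R 4.3.3: filterByExpr (minimum count 10), TMM scaling (factors 0.662 to 1.27), robust quasi-likelihood F-test over 13052 genes, Benjamini-Hochberg adjustment. Each SE is the size of the log2 fold change divided by the root of its F statistic. Alternatives used DESeq2 1.42.0, limma 3.58.1 (limma-voom), other scalings, no filter, a replicate block, and leaving out each library. Replicates differed by more than sampling noise in every pair (chi-square at least 9.1 times its degrees of freedom).

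The genes and lists were chosen with earlier results of these data known. The named genes are all members, and from 7 pathway lists (129 entries matched a row of the files by symbol, of 153) up to 3 called genes per direction with at least 1 CPM. Tyk2, Sting1, Sp100, Cd1d1, RT1-A1, RT1-A2, RT1-N3, RT1-M3-1, RT1-Da, RT1-Ba, Ciita, the named markers, Cmpk2, Phf11, Uba7, Oas2, Tlr3 and Cgas, and the RT1 sum were chosen after their values were seen. Promoters are RefSeq windows of GRCr8, matched by gene ID, or by symbol where no match by ID was found.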

Additional observations from a re-analysis of the deposited data

How the results depend on the processing

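Total library size gave 1063 higher and 3529 lower calls over all genes, and limma-voom 2533 lower. Leaving out 1 library gave 703 to 2747 higher and 399 to 2574 lower, with the low ends where a 2D culture library was left out. Over all interferon and antigen presentation genes (2 higher, 1 lower), total library size, no low-count filter, limma-voom with group weights and the replicate block each gave 1 higher, and the number lower was 7 with total library size, 3 with DESeq2, 5 with limma-voom, 2 with group weights and 0 with the block; leaving out 1 library gave 0 to 3 higher and 0 to 7 lower. In the receptor, kinase and transcription factor group the number higher was 0 with total library size, no filter, group weights and the block, the number lower was 3 with total library size and 1 with DESeq2, limma-voom and group weights, and leave-outs gave 0 to 1 for each. For effectors 3 were lower with total library size, 2 with limma-voom and 0 with the block, with 0 to 2 higher and 0 to 3 lower in leave-outs. For antigen processing 1 was lower with total library size and DESeq2 and 2 with limma-voom, and leave-outs gave 0 higher and 0 to 3 lower. Leave-outs gave 3 to 13 RT1 class I genes higher and 0 to 1 lower, and a summed RT1 change of 1.66 to 2.71. Over all alternatives the pathway lists gave 2 to 6 signalling regulators higher and 0 to 1 lower, 0 to 2 sensors and adaptors higher and 1 to 4 lower, 1 to 5 other interferon-induced genes higher and 1 to 6 lower, 0 to 2 class II genes higher and 0 to 1 lower, 2 loading and class I-like genes higher and 0 to 3 lower, and 0 to 3 constitutive proteasome subunits lower.

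The median of the receptor group was -1.04 with total library size and -0.45 to -0.02 in leave-outs. That of antigen processing was -1.21 with total library size, -1.38 with limma-voom with or without group weights, -1.39 with the block and -0.98 to 0.24 in leave-outs, and that of effectors -0.94 to -0.08 in leave-outs. The log2 ratio differences ranged in leave-outs from -2.84 to 0.04 for Psmb8, -4.01 to -1.74 for Psmb9 and -0.99 to -0.38 for Psmb10. Signs turned for genes that had not passed: with total library size Ifnar1 (-0.52), Ifnar2 (-0.42), Tap2 (-0.47), Tapbp (-0.04) and B2m (-0.28); for Stat2 with RLE scaling (0.01) and DESeq2 (0.01); for Tap2 with limma-voom (-0.03), with group weights (-0.03) and with the block (-0.03). In leave-outs the ranges were -0.38 to 0.52 for Ifnar1, -0.1 to 0.61 for Ifnar2, -0.26 to 0.39 for Stat2, -1.02 to 0.11 for Ifih1, -3.51 to 0.24 for Psmb8 and -0.21 to 0.69 for Tap2. Except where fewer libraries or genes entered, the cause was not tested.

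The labels do not say that the replicate numbers pair the libraries, and the correlations do not settle it. Deviations of same-numbered libraries correlated across 13052 genes at 0.061, 0.187 and 0.021. Differently numbered pairs ranged from -0.135 to 0.07, and 2D culture 3 correlated best with organoid 1 (0.07). With the replicate block 1441 genes were higher and 1289 lower, and Jak2 (adjusted p = 0.113) and Cxcl10 (adjusted p = 0.14) lost their calls. Depth limits what can be said of the effectors, of which 10 of 17 were too low to test.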

Other observations

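Each organoid stood apart from the others in a few interferon-induced genes. Phf11 had 16, 0 and 0 counts in organoids 1, 2 and 3, with a fractional count in 1 library, and Uba7 had 19, 1 and 0. Oas2 had 3, 25 and 0, and none of these genes was tested. How many of all genes differ in this way was not counted, so it cannot be read as a trait of interferon-induced genes. Organoid 3 stood apart in Rsad2, Ifit1 and Cmpk2. Beside the 31 counts of Rsad2 and 13 of Ifit1, its level of Cmpk2, a mitochondrial nucleotide kinase gene, was 4.87 CPM, against 0.648 and 0 CPM in organoids 1 and 2 and 1.81, 1.9 and 2.72 CPM in 2D culture. The same library had 1 count of the sensor gene Ifih1 and 0 counts of Irf7, Ifit2, Usp18 and Isg15. Organoid 1 was the organoid with the highest level for 12 of the 25 tested interferon and antigen presentation genes, against 9 for organoid 2 and 4 for organoid 3. The same count over all tested genes was not made, so the 12 cannot be read as a trait of these genes. Organoid 1 also had the lowest TMM factor (0.662). Tlr3, the endosomal sensor of double-stranded RNA, was at 3.46, 2.87 and 1.83 CPM in 2D culture and at 0.53, 0 and 0 CPM in organoids, without overlap (-3.93 ± 1.57, edgeR adjusted p = 0.109), and Cgas, the sensor of cytosolic DNA, was at 5.76, 5.44 and 2.94 CPM and at 3.54, 0.901 and 0.0946 CPM (adjusted p = 0.326).

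Across the genome, tested genes with the ISRE core in their promoter window numbered 297. Of these, 32 rose (10.8%) and 35 fell (11.8%), with a median log2 fold change of -0.14. Of 10318 tested genes without it, 14.7% rose and 12.6% fell, with a median of -0.03. These shares are a description with no test.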
